A study of Homo sapiens with 9 samples.

Results

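Genes of retinoic acid signalling were followed in MDA-MB-468 cells that carried a hairpin against LMO2 or an empty vector. The 10 genes, chosen by their symbols among the 56809 rows of the deposited count table, were the retinoid-responsive genes RARRES1 and RARRES2, the carrier CRABP2, the receptors RARA, RARB, RARG and RXRA, and the enzymes DHRS3, ALDH1A3 and CYP26A1. The set was drawn up with the response of RARRES1 to the hairpins already known, so the values against control below describe the genes and test nothing. Of the 10 genes, 8 passed the filter on low counts, and RARRES2 and CYP26A1 did not. The groups were named by the transfected plasmid in their labels. These were pSicoR_empty, the vector with no hairpin according to its label (control), pSicoR_shLMO2_1 (shLMO2-1) and pSicoR_shLMO2_2 (shLMO2-2). Each group had 3 libraries of polyadenylated RNA. MDA-MB-468 is an established line from a human breast adenocarcinoma, and all 9 libraries share this background. Nothing in the labels says whether the libraries of a group came from separate transfections or cultures, so p-values measure only the spread between these libraries, which may be technical.

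Retinoic acid is made inside cells from retinol (vitamin A), which is first oxidised to retinal and then to the acid. The acid is carried to the nucleus by CRABP2, where it binds a retinoic acid receptor (RAR) paired with a retinoid X receptor (RXR) on DNA, and CYP26 enzymes break it down. In breast epithelium and breast cancer lines the pathway is known for its link to differentiation and growth arrest, and several of its own components are transcribed in response to the acid. RARRES1 (retinoic acid receptor responder 1, also called TIG1) encodes a membrane protein related to the carboxypeptidase inhibitor latexin and is known as a gene often silenced in tumours.

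The RAR-RXR pair binds direct repeats of a short half-site, and the stretches below are shown because they are the places where such repeats stood in the promoters of the pathway. RefSeq promoter windows (GRCh38.p14, 250 bases before to 50 after a gene's start) were available for all 10 genes and, counting the pathway genes introduced further on, for 60 genes with 96 windows. Both strands were searched for the half-site AGGTCA, for its variants spelled AGTTCA and GGGTCA with 1 changed letter, for the form written GGTTCA in which both letters are changed, and for repeats of these with a spacer of 5, 2 or 1 bases. Single half-sites may lie inside a repeat. A repeat with a spacer of 5 bases was held by 31 of 35116 windows of all genes (0.0883%), one with a spacer of 2 by 14 (0.0399%) and one with a spacer of 1 by 46 (0.131%). Among the 96 windows, a repeat occurred in 1 window of RARB and 1 of CYP26A1, each with the spacer of 5. Capitals mark the half-sites, and the sequences run 5′ to 3′ on the strand named.
RARB, chr3:25428190-25428246, plus strand: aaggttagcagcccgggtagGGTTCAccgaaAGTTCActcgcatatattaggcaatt
CYP26A1, chr10:93073798-93073824, plus strand: aaagaTGAACTttgggTGAACTaattg
The RARB repeat lies at −53 to −37 from the gene's start and the CYP26A1 repeat at −90 to −74, where it reads on the minus strand. In the RARRES1 window (chr3:158732408-158732707, minus strand), these letters occurred not even as a single half-site. At least 1 was held by 38.6% of all windows and by 37 of the 96 pathway windows, so a single half-site does not set the pathway apart. STRA6 has 3 single half-sites in the window of one of its starts, at −206, −180 and −22. The windows of its other starts hold 0 or 1, and the window with 3 was taken for that number. A stretch of STRA6 is shown because, among the other members and the called list genes reported here, its level followed that of RARRES1 most closely.
STRA6, chr15:74212270-74212509, minus strand: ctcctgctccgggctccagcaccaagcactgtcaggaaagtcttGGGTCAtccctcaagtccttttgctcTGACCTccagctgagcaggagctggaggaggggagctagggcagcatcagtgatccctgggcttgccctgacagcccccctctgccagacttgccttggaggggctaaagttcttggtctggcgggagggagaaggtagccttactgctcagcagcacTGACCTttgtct
A match of letters describes the window and shows no binding. No binding data were analysed here.

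The libraries held 15494486 to 23069456 estimated counts. LMO2, the hairpins' target, had 4, 35 and 19 counts in the control libraries, 2, 1 and 6 with shLMO2-1 and 1, 4 and 3 with shLMO2-2, too few to pass the filter, and control replicate 1 lay below shLMO2-1 replicate 3. Control replicate 1 also stood apart from the other controls on the first principal component (−35.9 against −12.6 and −15, with 31.2% of the variance). Replicate 1 was lowest there in both hairpin groups too. It was at −0.7 against 5.9 and 18 with shLMO2-1, and at 5.6 against 12 and 22.8 with shLMO2-2. Values that rest on control replicate 1 are given without it, in fits that keep the hairpin libraries numbered 1. The line's markers were present, with EGFR at 4780 to 7940 CPM (a gene's counts scaled to its library total, adjusted by the TMM method of edgeR) and KRT5 at 2480 to 3640 CPM. With these 2 included, 5 basal markers summed to 8890 to 10800 CPM in control, 10900 to 11500 CPM with shLMO2-1 and 9750 to 11000 CPM with shLMO2-2. All shLMO2-1 libraries thus lay above control, and shLMO2-2 overlapped it. Of 5 luminal markers, 4 passed the filter, with ESR1 at 2.47 to 6.1 CPM, and PGR was at 0. The summed level of the 5 was 117 to 127 CPM in control, 119 to 122 CPM with shLMO2-1 and 115 to 127 CPM with shLMO2-2. The summed level of 5 epithelial markers, all of which passed the filter, was 4400 to 5330 CPM in control, 5430 to 6470 CPM with shLMO2-1 and 6110 to 7110 CPM with shLMO2-2, so both hairpin groups lay above control. Of 5 leukocyte markers, 2 passed the filter, and CD3E was at 0 in all libraries. The summed level of the 5, nearly all CD68 and CD14, was 1.48 to 2.15 CPM in control, 3.16 to 5.74 CPM with shLMO2-1 and 3.95 to 4.52 CPM with shLMO2-2. The summed level of 6 fibroblast markers, 1 of which passed the filter and 2 of which (COL3A1 and LUM) were at 0, was 9.79 to 14.2, 12.4 to 17.1 and 14.4 to 16.5 CPM in the same order. Endothelial markers, 5 genes with none at 0 in all libraries, summed to 7.18 to 13.9, 13.5 to 19.4 and 8.58 to 11.2 CPM. The part of these markers in the results below was not tested.

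Of the 8 tested members, RARRES1 had the largest log2 fold change against control, with about the same level in all control libraries. Its annotated span in GENCODE 29 (GRCh38) is bases 158696892 to 158732696 of chromosome 3, on the minus strand. Its level was 82.7, 88.6 and 83.6 CPM in the control libraries, 208, 185 and 231 CPM with shLMO2-1, and 234, 235 and 262 CPM with shLMO2-2. Every hairpin library lay above every control library. The fold over control was 2.45 with shLMO2-1 (log2 fold change 1.29, SE 0.0853) and 2.87 with shLMO2-2 (1.52, SE 0.0855). Without control replicate 1 the values were 1.27 and 1.49. As in any bulk sample, a higher level per cell and a larger share of cells with the transcript cannot be told apart.

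The start of RARRES1 overlaps the start of MFSD1 and of the antisense gene AC080013.1, both on the other strand. The use of strand in counting is not given in the sources used here, so reads of the overlap cannot be assigned with certainty. MFSD1, a membrane transporter gene, was at 39.5 ± 1.95 CPM in control, 35.3 ± 1.17 with shLMO2-1 and 39.3 ± 1.99 with shLMO2-2 (SD, n = 3). AC080013.1 stayed between 0.348 and 0.952 CPM in all libraries. Neither passed the threshold in any contrast (edgeR quasi-likelihood F-test, Benjamini-Hochberg adjusted p 0.231 or more). RARA-AS1, TOP2B and AC015712.2, which overlap RARA, RARB and ALDH1A3 in turn, did not pass in any contrast (edgeR adjusted p 0.32 or more).

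**Figure D1:**
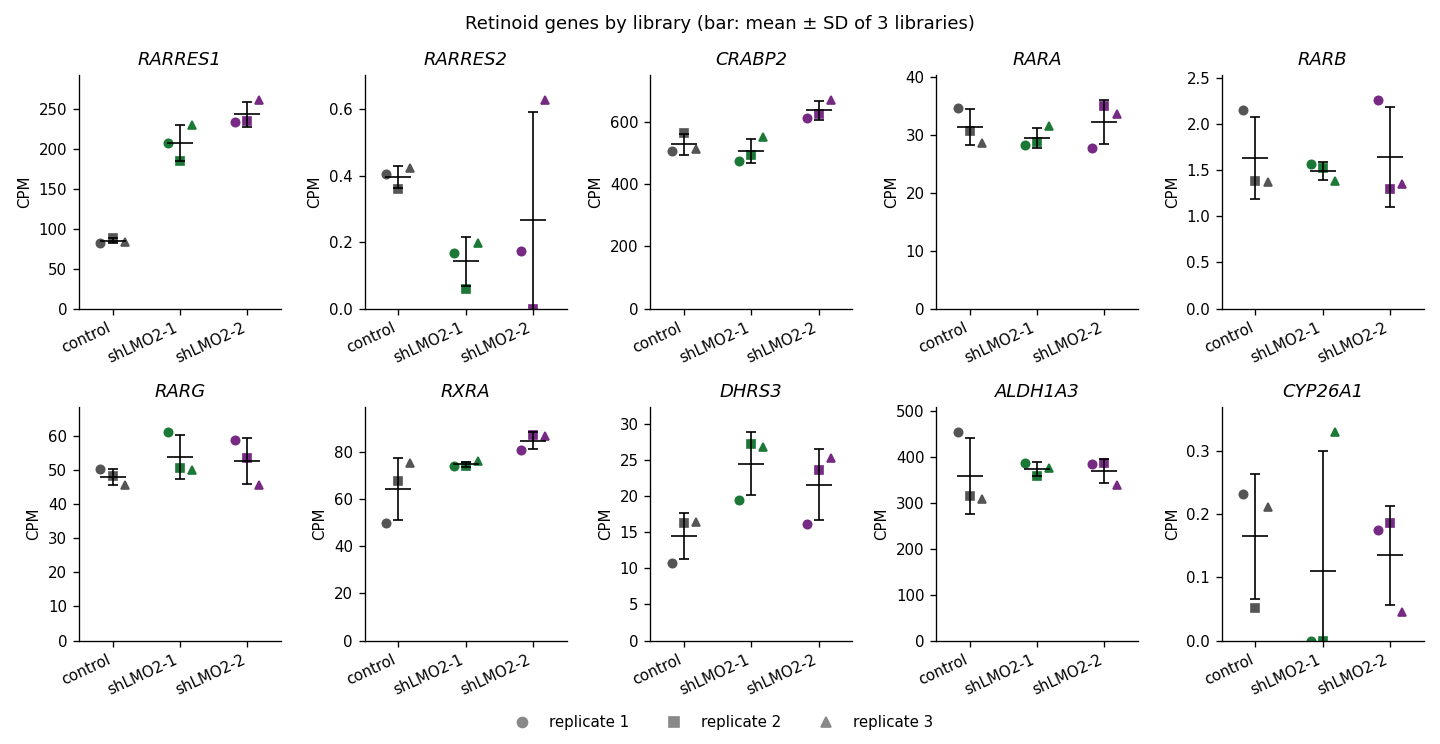
Level in CPM (vertical axes, each from 0) of the 10 retinoid genes in the 3 control, 3 shLMO2-1 and 3 shLMO2-2 libraries (symbols by replicate number, black bars mean ± SD). RARRES1 lies at 82.7 to 88.6 CPM in control and at 185 to 262 CPM with the hairpins, while RARA, RARB, RARG and ALDH1A3 overlap between all groups.

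RARRES2 encodes chemerin, a secreted attractant of leukocytes and an adipokine. It held 7, 7 and 8 counts in control, 3, 1 and 3 with shLMO2-1, and 4, 0 and 14 with shLMO2-2. The shLMO2-2 libraries thus spanned the whole range of the others, from a count of 0, which allows up to 0.138 CPM (3 counts), to 0.607 CPM (95% exact Poisson interval 0.332 to 1.02, for counting error only). Summed over a group, RARRES2 was at 0.402 CPM in control (0.252 to 0.609), 0.139 with shLMO2-1 (0.0559 to 0.287) and 0.266 with shLMO2-2 (0.157 to 0.42). These sums do not show the spread between libraries, and the depth did not allow a test. The chemerin receptors CMKLR1 and GPR1 were at 0 in all 9 libraries, and CCRL2, which binds chemerin without signalling, held 1 to 11 counts per library.

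CRABP2, which hands retinoic acid to its receptors, was the most abundant member. Its level was 505, 566 and 512 CPM in control, 474, 495 and 550 CPM with shLMO2-1, and 613, 626 and 671 CPM with shLMO2-2. The shLMO2-1 libraries overlapped the controls, and all 3 shLMO2-2 libraries lay above all others. Against control, the log2 fold change was −0.06 (SE 0.0706) with shLMO2-1 and 0.27 (SE 0.0706) with shLMO2-2. The latter passed the threshold in 3 of 9 fits that left out a library (control replicate 2, shLMO2-1 replicate 1 or shLMO2-1 replicate 3), and it was 0.23 without control replicate 1.

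The receptors showed little difference between groups. RARA and RARG, the main retinoic acid receptors of these cells, differed from control by −0.09 (SE 0.109) and 0.17 (SE 0.109) in log2 with shLMO2-1 and by 0.04 (SE 0.108) and 0.13 (SE 0.108) with shLMO2-2. RARA ranged from 27.8 to 35 CPM and RARG from 45.4 to 61.1 CPM over the 9 libraries, and for both genes each hairpin group overlapped the controls. RARB, the receptor that is itself transcribed in response to retinoic acid, was low, with 37, 27 and 26 counts in control, 28, 26 and 21 with shLMO2-1 and 52, 28 and 30 with shLMO2-2. Its log2 fold changes were −0.12 (95% interval −0.82 to 0.58) and 0.01 (−0.67 to 0.69), and differences inside these intervals were not resolved at this depth.

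RXRA, the shared partner of these receptors, was lowest in control replicate 1. It was at 49.7, 67.7 and 75.1 CPM in control, 74, 74.1 and 75.9 CPM with shLMO2-1 and 80.5, 87.2 and 86.5 CPM with shLMO2-2. The shLMO2-2 libraries lay above all controls, while the shLMO2-1 libraries overlapped control replicate 3. RXRA differed from control by 0.22 (SE 0.121) in log2 with shLMO2-1 and by 0.40 (SE 0.12) with shLMO2-2, neither past the threshold. Without control replicate 1 these values were 0.06 and 0.24, and without control replicate 3 the second passed.

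DHRS3, which reduces retinal back to retinol and is known to be induced by retinoic acid, had a higher mean with both hairpins. Its level was 10.8, 16.3 and 16.4 CPM in control, 19.4, 27.2 and 26.8 CPM with shLMO2-1 and 16.1, 23.6 and 25.2 CPM with shLMO2-2. In all 3 groups the library numbered 1 was the low one. The shLMO2-1 libraries lay above all controls, and shLMO2-2 overlapped control. DHRS3 differed by 0.75 (SE 0.207) in log2 with shLMO2-1, past the threshold, and by 0.57 (SE 0.206) with shLMO2-2, not past it. Without control replicate 1 the values were 0.57 and 0.39, and the call with shLMO2-1 held in 2 of 9 fits that left out a library (shLMO2-1 replicate 1 or shLMO2-2 replicate 1).

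ALDH1A3, which oxidises retinal to retinoic acid and marks aldehyde dehydrogenase activity in many breast cancer lines, did not separate the groups. It stood at 455, 314 and 308 CPM in control, 388, 358 and 375 CPM with shLMO2-1 and 384, 386 and 340 CPM with shLMO2-2. Control replicate 1 was above all other libraries, and the other two controls were below all hairpin libraries. In log2 it differed from control by 0.06 (SE 0.129) and 0.04 (SE 0.128). Without control replicate 1 it was 0.26 and 0.24, and the first of these passed the threshold.

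CYP26A1, the main enzyme of retinoic acid breakdown and one of the most inducible targets of the acid, was close to absent. It held 4, 1 and 4 counts in control, 0, 0 and 5 with shLMO2-1 and 4, 4 and 1 with shLMO2-2. A count of 0 allows up to 0.17 and 0.174 CPM in the shLMO2-1 replicates 1 and 2. The sums per group were 0.165 CPM (95% exact Poisson interval 0.0753 to 0.313), 0.0993 (0.0323 to 0.232) and 0.133 (0.0607 to 0.252), and a difference was not detectable at this depth.

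Of the 8 members tested, 2 passed the threshold (adjusted p under 0.05) with shLMO2-1, RARRES1 and DHRS3, against 8.42% of the 14708 genes tested. With shLMO2-2 there were also 2, RARRES1 and CRABP2, against 8.97%. All of these were higher than control, where 4.54% of genes were called higher and 3.88% lower with shLMO2-1, and 4.94% higher and 4.03% lower with shLMO2-2. Scaling by total counts alone turned the balance over all genes from 668 higher and 571 lower to 562 and 782 with shLMO2-1, and from 726 and 593 to 568 and 832 with shLMO2-2. Libraries of the 2 groups did not overlap for 2 of the 8 members with shLMO2-1 (28.3% of all genes) and for 3 with shLMO2-2 (29.9%). The median log2 fold change of the 8 members was 0.11 with shLMO2-1 and 0.20 with shLMO2-2, beside 0.001 and 0 over all genes. Because the members were chosen on these contrasts, nothing is read from these counts, and because both hairpins were set against the same control libraries, the values stand side by side only.

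The members' levels were compared with one another per kilobase of the longest coding transcript in GENCODE 29. In control, the order was CRABP2 (511 CPM per kilobase), ALDH1A3 (91.5), RARRES1 (43.5), RXRA (34.8), RARG (16.2), RARA (10.3), DHRS3 (8.42), RARB (0.53), RARRES2 (0.245) and CYP26A1 (0.0734). RARA and DHRS3 overlapped over the control libraries, as their ranges of 9.4 to 11.4 and 6.27 to 9.52 CPM per kilobase show, and the other neighbours in the order did not. RARRES1, with 107 CPM per kilobase with shLMO2-1 (94.8 to 118) and 125 with shLMO2-2 (120 to 134), stood second in both hairpin groups. With shLMO2-1 its range overlapped that of ALDH1A3 (91.2 to 98.9), and by mean transcript length ALDH1A3 stayed above it there. The transcript in use is not known from gene counts, so the order rests on the lengths taken.

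**Figure D2:**
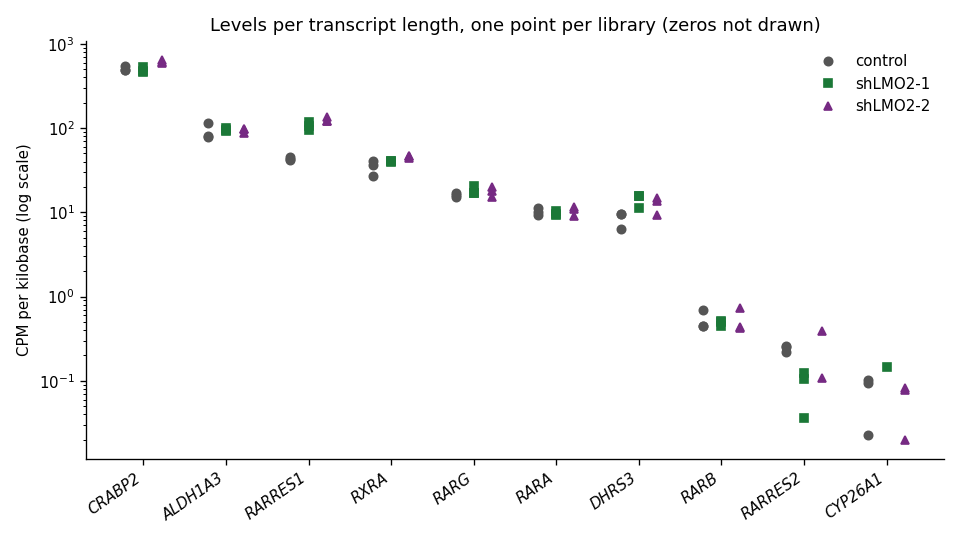
Level of the 10 retinoid genes in CPM per kilobase of the longest coding transcript (log axis), one point per library, by group; libraries at 0 are not drawn. RARRES1 lies at 42.4 to 45.4 in control, below ALDH1A3, and at 120 to 134 with shLMO2-2, above it.

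The rule that chose the members does not name the difference between the hairpins, which was tested, although earlier results of this comparison were also known when the members were chosen. None of the 8 members passed the threshold in shLMO2-2 against shLMO2-1 (edgeR quasi-likelihood F-test), against 0.768% of all genes (0.347% higher and 0.422% lower with shLMO2-2). At an unadjusted p under 0.05 there were 2 of the 8, RARRES1 and CRABP2, against 10.6% of all genes. DESeq2 called 1 member, CRABP2, against 2.31% of the genes to which it gave an adjusted p, and limma-voom called 0, against 0.836%. The libraries of the hairpins did not overlap for 3 of the 8 members, RARRES1, CRABP2 and RXRA, which was the case for 18.1% of all genes. The median difference of the members was 0.13, beside −0.001 over all genes.

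RARRES1 was higher with shLMO2-2 by 0.23 in log2 (95% interval 0.04 to 0.41), with an adjusted p of 0.343 from edgeR's quasi-likelihood F-test. The 3 shLMO2-2 libraries lay above the 3 shLMO2-1 libraries, though by little (234 against 231 CPM at the nearest). CRABP2 was higher with shLMO2-2 by 0.33 (0.17 to 0.49; edgeR adjusted p 0.0676). Over the alternatives the adjusted p of CRABP2 ran from 0.00214 to 0.304. Of the 9 fits that left out a library, it passed the threshold without control replicate 1 (0.0315) or without shLMO2-1 replicate 3. It also passed in 5 of the 9 other settings, and not with median-of-ratios scaling, upper-quartile scaling, at least 10 counts in every library or limma-voom. The intervals of the other tested members all held 0, and the widest was that of RARB (−0.56 to 0.82).

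**Figure D3:**
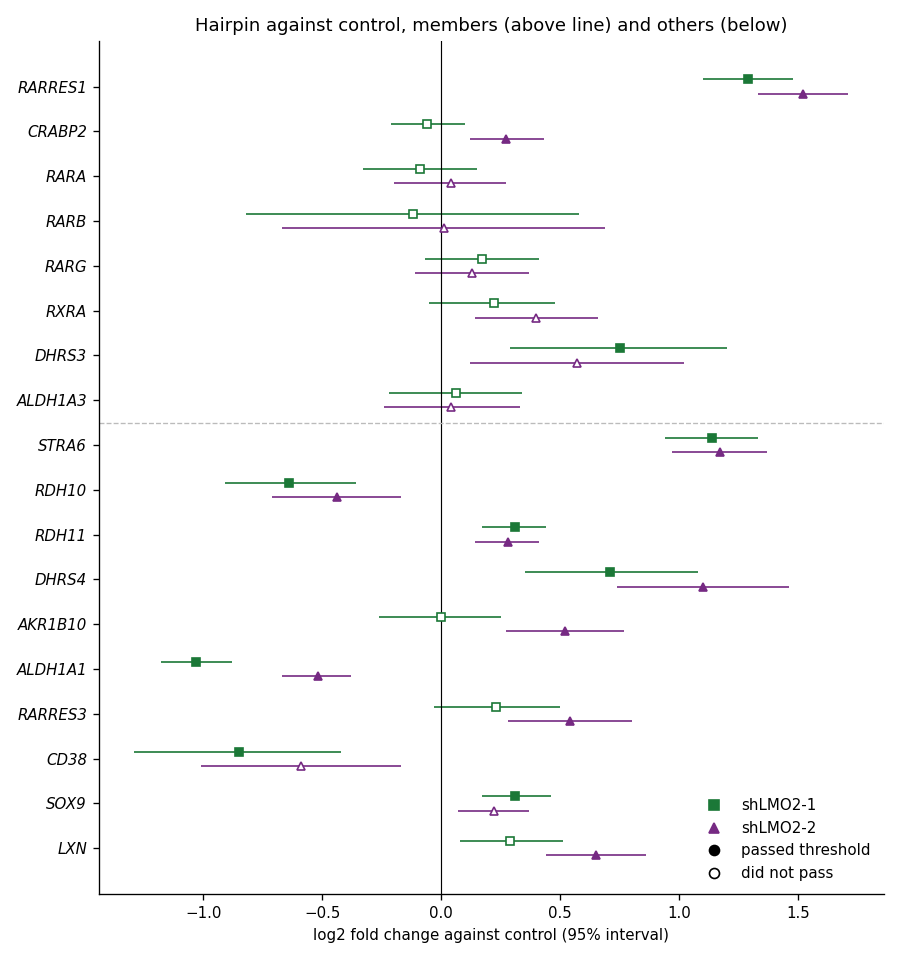
Log2 fold change against control (horizontal axis, with 95% interval) with shLMO2-1 (squares) and shLMO2-2 (triangles), for the 8 tested members above the dashed line and for other named genes below it; filled symbols passed the threshold of an adjusted p under 0.05. RARRES1 and STRA6 lie above 1 with both hairpins and ALDH1A1 below 0 with both.

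The rest of the pathway was described with a list of 67 further genes, 45 of which passed the filter. With shLMO2-1, 9 of the 45 passed the threshold, 6 higher and 3 lower (20%), and with shLMO2-2 also 9, 7 higher and 2 lower (20%). Between the hairpins 1 did (2.22%). The shares of all genes are those given above. The median log2 fold change of the 45 genes was 0.04 with shLMO2-1 and 0.11 with shLMO2-2. The list was also written with earlier results of these data known, so the counts are a description, and they include called genes that are not reported here.

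Among genes of retinol uptake and storage, STRA6 changed with both hairpins. It encodes the membrane receptor that takes up retinol from its blood carrier. It was at 19.8, 22.9 and 19.6 CPM in control, 42.3, 48.5 and 46.3 CPM with shLMO2-1 and 47.6, 44.4 and 48.3 CPM with shLMO2-2. The hairpin libraries lay above all controls. STRA6 rose with both hairpins, by 1.14 (SE 0.0903, edgeR adjusted p 6.66e-05) and 1.17 (SE 0.0897, edgeR adjusted p 4.28e-05) in log2. The hairpins differed by 0.03 (95% interval −0.16 to 0.22). STRA6 (chromosome 15, bases 74179466 to 74212267, minus strand) overlaps CCDC33 on the other strand. LRAT, DGAT1 and BCO1, also of uptake and storage, did not pass in any contrast.

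Of 9 tested enzymes that interconvert retinol and retinal, 2 passed the threshold higher and 1 lower with shLMO2-1, and 4 higher and 1 lower with shLMO2-2, beside the same shares of 8.42% and 8.97% of all genes. The 4 include ADH1C, which passed the filter on low counts only through hairpin libraries. RDH13, RDH14, ADH5 and AKR1C3 did not pass in any contrast. RDH10, the main enzyme that oxidises retinol to retinal, fell from 76.5, 66.5 and 55.8 CPM in control to 45.1, 44 and 38.6 CPM with shLMO2-1 and to 55.8, 45.8 and 44.8 CPM with shLMO2-2. The lowest control library met the highest shLMO2-2 library, while shLMO2-1 lay below all controls. In log2 the change of RDH10 was −0.64 (SE 0.124, edgeR adjusted p 0.0115) with shLMO2-1 and −0.44 (SE 0.123, edgeR adjusted p 0.0483) with shLMO2-2. RDH10 overlaps the ribosomal protein gene RPL7 and RDH10-AS1, both on the other strand, so reads of these overlaps cannot be assigned with certainty either. The call with shLMO2-2 held in 2 of 9 fits that left out a library (control replicate 3 or shLMO2-2 replicate 1), and that with shLMO2-1 was lost without shLMO2-1 replicate 3 (adjusted p 0.0535).

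RDH11, which reduces retinal, rose by 0.31 (SE 0.0622, edgeR adjusted p 0.0133) and 0.28 (SE 0.0619, edgeR adjusted p 0.0214), from 101 to 108 CPM in control to 129 to 134 and 122 to 134 CPM. Its call was lost without replicate 2 or 3 of the hairpin in question, and with shLMO2-2 also without control replicate 3. DHRS4, a retinal reductase, rose by 0.71 (SE 0.166, edgeR adjusted p 0.0257) and 1.10 (SE 0.163, edgeR adjusted p 0.0028). It was at 5.28, 6.51 and 5.5 CPM in control, 7.59, 9.49 and 11.3 CPM with shLMO2-1 and 11.7, 11.7 and 13.7 CPM with shLMO2-2. With shLMO2-1 its call was lost without control replicate 1 or 3 or without shLMO2-1 replicate 2 or 3 (adjusted p up to 0.0938).

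DHRS4 has a close copy, DHRS4L2, next to it on chromosome 14, and reads can be divided between them. DHRS4L2 was looked at for that reason after the value of DHRS4 was seen, and its log2 fold changes were 0.85 (edgeR adjusted p 0.0102) and 0.93 (edgeR adjusted p 0.00599). Summed with DHRS4L1, the family was at 9.84 ± 0.941 CPM in control, 16.7 ± 2.43 with shLMO2-1 and 20 ± 1.51 with shLMO2-2 (SD, n = 3). The sum thus differed in the same direction as DHRS4 and DHRS4L2. DHRS4L1 held 1, 2 and 1 counts in control and 0 in all hairpin libraries.

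AKR1B10, another retinal reductase, was at 18.2 ± 1.14 CPM in control, 18.2 ± 2.29 with shLMO2-1 and 26.1 ± 2.41 with shLMO2-2 (SD, n = 3). It rose with shLMO2-2 (0.52, SE 0.113, edgeR adjusted p 0.0198), a call that was lost without control replicate 3 or shLMO2-2 replicate 2 or 3. Between the hairpins the difference was 0.52 with an edgeR adjusted p of 0.0744. Its near copy AKR1B15, also looked at afterwards, did not pass in any contrast, and the sum of both was 28.8 ± 2.1, 27 ± 1.77 and 37.6 ± 3.51 CPM in the 3 groups.

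ADH1C, an alcohol dehydrogenase that also acts on retinol, had very low counts. It held 0, 2 and 3 counts in control, 18, 8 and 8 with shLMO2-1 and 30, 19 and 7 with shLMO2-2, so all hairpin libraries were above all controls. The edgeR adjusted p was 0.0587 with shLMO2-1 and 0.0343 with shLMO2-2, the latter a call that held in 3 of 9 fits that left out a library (shLMO2-1 replicate 1, shLMO2-1 replicate 3 or shLMO2-2 replicate 3). ADH1C reached the filter's minimum count of 10 only in hairpin libraries, so it was tested only because of them. Its p-values are therefore a description and no support for a rise. Its paralogs ADH1A and ADH1B were at 0 in all libraries.

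**Figure D4:**
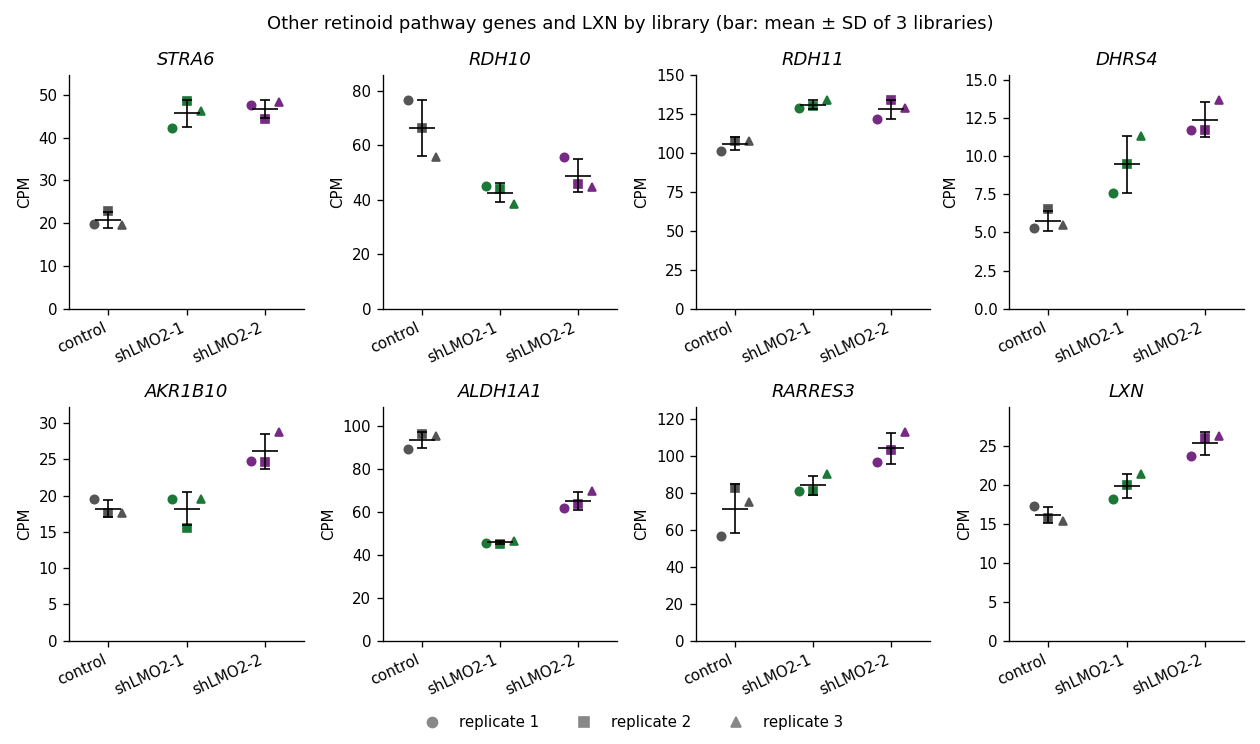
Level in CPM (vertical axes, each from 0) of 7 pathway genes outside the 10 members and of LXN, in the 9 libraries by group (symbols by replicate number, black bars mean ± SD). STRA6 lies at 19.6 to 22.9 CPM in control and at 42.3 to 48.5 CPM with the hairpins, and ALDH1A1 falls into 3 groups with no overlap.

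ALDH1A1 makes retinoic acid from retinal, as ALDH1A3 does, and it fell with both hairpins. Its level was 89.4, 96.4 and 95.4 CPM in control, 45.5, 45.3 and 46.7 CPM with shLMO2-1 and 62.1, 63.6 and 69.9 CPM with shLMO2-2. No 2 of the 3 groups overlapped. ALDH1A1 changed by −1.03 (SE 0.068, edgeR adjusted p 2.86e-05) with shLMO2-1 and −0.52 (SE 0.0664, edgeR adjusted p 0.00136) with shLMO2-2 in log2. It was the one list gene that differed between the hairpins, by 0.51 (95% interval 0.36 to 0.66, edgeR adjusted p 0.00519). Per kilobase of the longest transcript it stood at 44.5 CPM in control, below ALDH1A3 at 91.5, and at 21.8 and 30.9 CPM with the hairpins. ALDH1A2, the third enzyme of this step, averaged 3.881 CPM over all libraries and did not pass.

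Receptors and breakdown enzymes outside the 10 members gave no call. RXRB and PPARD (2 of 2 tested), the carrier CRABP1 (1 of 1) and CYP26B1 (1 of 1) did not pass in any contrast. CRABP1 averaged 1.074 CPM, against 474 CPM for CRABP2 in the library where that gene was lowest. CYP26B1 was the breakdown enzyme that could be measured, with a mean of 33.09 CPM over the 9 libraries and log2 fold changes of −0.04 (SE 0.2155) and −0.10 (SE 0.2138). Its level therefore stood well above that of CYP26A1, though not compared per length.

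Of 17 tested genes listed as responsive to retinoic acid, 2 passed the threshold with shLMO2-1 (1 higher and 1 lower), beside 8.42% of all genes, and 1 with shLMO2-2 (higher), beside 8.97%. RARRES3, a phospholipase and acyltransferase, was at 56.8, 82.3 and 75.2 CPM in control, 81, 81.2 and 90.1 CPM with shLMO2-1 and 96.6, 103 and 113 CPM with shLMO2-2. It rose with shLMO2-2 (0.54, SE 0.119, edgeR adjusted p 0.0201), was at 0.23 (SE 0.12, edgeR adjusted p 0.263) with shLMO2-1, and was at 0.39 and 0.09 without control replicate 1. The call was lost without control replicate 3 or shLMO2-2 replicate 2 or 3.

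CD38, an enzyme that consumes NAD on the cell surface and a known target of retinoic acid in leukocytes, fell with shLMO2-1 (−0.85, SE 0.197, edgeR adjusted p 0.0245) and was at −0.59 (SE 0.191, edgeR adjusted p 0.0806) with shLMO2-2. Its level was 5.97 to 7.88 CPM in control and 3.43 to 5.48 CPM with the hairpins. SOX9, a transcription factor of progenitor cells, rose with shLMO2-1 (0.31, SE 0.0674, edgeR adjusted p 0.0174) and was at 0.22 (SE 0.0672, edgeR adjusted p 0.0651) with shLMO2-2. Both calls were lost without control replicate 2 or shLMO2-1 replicate 2, that of CD38 also without shLMO2-1 replicate 3 and that of SOX9 without shLMO2-1 replicate 1. HOXA4, HOXA5, HOXB4, TGM2, MEIS1, MEIS2, ICAM1 and ELF3 did not pass in any contrast.

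LXN (latexin), the relative of RARRES1, lies 24.2 kilobases from it on the same strand. Its level was 17.3, 15.7 and 15.3 CPM in control, 18.2, 19.9 and 21.3 CPM with shLMO2-1 and 23.6, 26 and 26.2 CPM with shLMO2-2. All hairpin libraries were above all controls. LXN rose with shLMO2-2 (0.65, SE 0.0972, edgeR adjusted p 0.0029) and did not pass with shLMO2-1 (0.29, SE 0.099, edgeR adjusted p 0.0937). Between shLMO2-2 and shLMO2-1 LXN differed by 0.35 (95% interval 0.14 to 0.57), which did not pass (edgeR adjusted p 0.161).

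Within 500 kilobases of RARRES1, a window chosen after the value of LXN was seen, 8 other genes were tested. LXN was the one called with shLMO2-2, and MLF1 the one called with shLMO2-1, where it fell (−0.47, edgeR adjusted p 0.0195). Over all genes, 8.97% were called with shLMO2-2 and 8.42% with shLMO2-1, so nothing is read from these counts. GFM1, which overlaps LXN on the other strand and reaches towards RARRES1, was at −0.24 and −0.18 (edgeR adjusted p 0.0659 and 0.159). AGBL2, a tubulin carboxypeptidase known to bind RARRES1, held 0 to 12 counts per library and was not tested.

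The genes whose level followed RARRES1 most closely over the 9 libraries were ranked by Pearson's r of log2 CPM among 11030 genes with a mean of at least 5 CPM. The libraries form 3 groups that differ in RARRES1, so r carries the differences between groups and is given as a description with no p. CSF3R, the receptor of granulocyte colony-stimulating factor, came first (r = 0.995), with group means of 3.52, 11.6 and 15.7 CPM in control, shLMO2-1 and shLMO2-2. NCCRP1, STS, ZNF395 and COX16 followed (0.994 to 0.987). The lowest values were those of TPM1 (−0.984), AGPAT1, EPB41L2, GPNMB and ATF3 (−0.979). Among the ranked members and the called list genes reported here, STRA6 stood highest, at rank 11 (r = 0.976), with DHRS4 at 0.933 and RDH11 at 0.929. The rest of the pathway list was not compared in this way. The other members ranked lower, with RXRA and DHRS3 at 0.734, CRABP2 at 0.463, RARG at 0.414, ALDH1A3 at 0.172 and RARA at 0.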

How the data were processed

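The authors deposited 1 table of estimated counts for 56809 gene symbols in 9 libraries. The submitters' processing notes name Salmon 0.12, DESeq2 1.22.2 and the build GRCh38.p12, with no role or order. The annotation and the use of strand are not given in the sources used here. Between 11.7% and 12.8% of a library's values were not whole, since reads can be divided among similar transcripts, which makes close copies and overlapping genes uncertain. Per the labels' protocols, polyadenylated RNA was selected. Libraries were grouped by the plasmid in their labels, and none was left out.

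Counts were rounded and tested with edgeR 4.0.16 (R 4.3.3): TMM scaling, filterByExpr (minimum count 10, minimum total 15; 14708 genes kept, with 99.91% of counts), and a quasi-likelihood F-test in a fit of 3 groups, with Benjamini-Hochberg adjustment over all tested genes and a threshold of 0.05. SEs come from the fold change and F, and CPM uses TMM-scaled totals, except where a Poisson interval is given, which uses plain totals. The script was checked on simulated data. Chi-square between libraries of a group was 5.19 to 30.7 per gene over 11315 genes, so none is a copy of another. Coordinates come from GENCODE 29 by symbol (all 56809 matched, 219 to more than 1 ID), sequences from RefSeq. Alternatives were other scalings, filters, DESeq2 1.42.0, limma-voom (limma 3.58.1), the 2 groups alone, a replicate block, and leaving out each library.

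The members, lists and tests were chosen with earlier results of these data known. Named were the 10 members, LMO2, listed genes called in any contrast, LXN, AGBL2 and chemerin receptors, genes overlapping a member, and the 5 genes highest and the 5 lowest in likeness to RARRES1 (log2 of CPM plus 0.5). Some of these genes are not reported here. Poisson intervals and floors cover counting error only.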

Additional observations from a re-analysis of the deposited data

Results flagged for a closer look

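ALDH1A1, a retinoic acid-forming enzyme, differed between the hairpins, which share 1 target. The log2 fold change of shLMO2-2 against shLMO2-1 was 0.51 (SE 0.0679, edgeR adjusted p 0.00519), with all 3 shLMO2-2 libraries (62.1 to 69.9 CPM) above all 3 shLMO2-1 libraries (45.3 to 46.7 CPM) and below all 3 controls. It passed the threshold in all 9 fits that left out a library, with 0.45 to 0.54 and an adjusted p of up to 0.0492.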

How the results depend on the processing

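RARRES1, STRA6 and ALDH1A1 passed the threshold against control with both hairpins in all 9 fits that left out a library and in all 9 other settings run. These genes were chosen or listed with earlier results of the same libraries known, so the passes describe the fits and are no further test. RARRES1 ran from 1.21 to 1.37 with shLMO2-1 and from 1.46 to 1.55 with shLMO2-2 when a library was left out. Leaving out a library gave 546 to 1397 calls over all genes with shLMO2-1 (lowest without shLMO2-1 replicate 3), 494 to 1243 with shLMO2-2 (lowest without shLMO2-2 replicate 2) and 38 to 239 between the hairpins (lowest without shLMO2-1 replicate 2, highest without control replicate 1). For the members the ranges were 1 to 2, 1 to 2 and 0 to 1, and for the pathway list 4 to 10, 3 to 9 and 1 to 2. With the 2 groups alone, 678, 752 and 180 genes were called, and 1, 1 and 1 members. That fit lost the calls of DHRS3, DHRS4 and SOX9 with shLMO2-1 and of CRABP2, RDH10, RDH11 and ADH1C with shLMO2-2. ADH1C was also lost with limma-voom. Members with shLMO2-1 numbered 1 under median-of-ratios scaling, upper-quartile scaling and limma-voom, where DHRS3 was lost. Without a filter on low counts, members with shLMO2-2 numbered 4 (DHRS3 and RXRA added) and list genes 14 with each hairpin, and between the hairpins 378 genes, 1 member and 2 list genes were called. DESeq2 called 320 genes, 1 member and 2 list genes between the hairpins, and total-count scaling 1 member. The cause of these differences was not tested. A scaling moved the median of all genes by at most −0.048, with total counts.

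Replicate numbers are shared between groups. With group means removed, same-numbered libraries correlated from −0.097 to 0.389, with 6 of 9 pairs over 0.1. The range was 0.331 to 0.389 for replicate 1, 0.214 to 0.299 for replicate 3 and −0.097 to 0.05 for replicate 2. For 5 of 9 libraries the best match in both other groups had the same number. Libraries numbered 1 and 3 thus shared part of their spread across groups, which the main fit leaves in its error. What the numbers stand for is not given in the sources used here, so the block was kept as an alternative. With a replicate block, 2213, 2375 and 255 genes were called, with 4 members (DHRS3 and RXRA added) and 14 list genes for shLMO2-2 and 1 member and 3 list genes between the hairpins.

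Directions turned only for values that had not passed. The one farthest from 0 was that of ADH1C between the hairpins (0.31, SE 0.589), a gene with very low counts. With shLMO2-2, total-count scaling gave −0.01 for RARA, −0.04 for RARB and −0.01 for ALDH1A3, and the replicate block gave 0 for RARB. When a library was left out, ALDH1A3 ran from −0.04 to 0.26 with shLMO2-1 and from −0.06 to 0.24 with shLMO2-2, RARB from −0.23 to 0.11 and from −0.31 to 0.24, RARA with shLMO2-2 from −0.04 to 0.12, and AKR1B10 with shLMO2-1 from −0.06 to 0.09. Between the hairpins the ranges were −0.18 to 0.27 for RARB, −0.13 to 0.07 for RARG, −0.05 to 0.04 for ALDH1A3, −0.02 to 0.08 for STRA6, −0.07 to 0 for RDH11 and −0.18 to 0.74 for ADH1C. Depth limited RARRES2, CYP26A1, LMO2, AGBL2 and CCRL2, which were not tested.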
